A study of Bos taurus with 24 samples.

Results

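Cultured subcutaneous adipose cells of 3 Holstein cows, given oleic acid after adipogenic induction and collected at day 7, were compared with untreated cells of the same cows. The comparison uses 6 of the 24 RNA-seq libraries of the series, the 3 labelled OA and the 3 labelled CON of cows 1, 2 and 3, chosen by treatment and day and paired by cow number. Pre-adipocytes had been isolated from subcutaneous fat explants and differentiated in medium with 10% serum, insulin, acetate and 5 µM troglitazone, a synthetic PPARG agonist. Isobutylmethylxanthine and dexamethasone were present for the first 48 h of induction. CON cells stayed in this basal medium, and OA cells received 300 µM oleic acid in it for 7 d, starting 48 h after induction. The PPARG agonist was therefore shared by both groups. The other libraries of day 7 are from the same cows and received palmitic acid (PA) or the 60-40 combination of PA and OA (MIX), also at 300 µM. Libraries of day 4 came from cows 4, 5 and 6, whose cells were treated during induction. Each library is 1 cow and 1 treatment, and the age of the animals is not given in the sources used here.

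Oleic acid is the main monounsaturated fatty acid of animal fat, and palmitic acid is the main saturated one. Inside cells, fatty acids are activated to acyl-CoA, stored as triacylglycerol in lipid droplets or oxidised, and they are ligands of the PPAR nuclear receptors, which switch on genes of lipid handling. SREBPs, the transcription factors encoded by SREBF1 and SREBF2, drive the genes of fatty acid and cholesterol synthesis. Unsaturated fatty acids are known to hold back the SREBP encoded by SREBF1.

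Values are FPKM, read counts scaled to gene length and library size, as the authors deposited them. Values in threes below are given in the order of cows 1, 2 and 3. A log2 difference is OA minus CON on the log2(FPKM + 1) scale, from a limma fit with cow as a block over the 12 libraries of day 7, with its standard error (SE). Reads recovered from the FPKM values were 24008811, 21304477 and 19358115 in CON and 14398902, 22995878 and 17883481 in OA, so the OA library of cow 1 was the shallowest of the 6 and the CON library of the same cow the deepest. Where a gene had no read, the count of 0 allows a level of up to 0.125 to 0.208 CPM in these libraries (3 counts per library, counting error only).

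The labels call the cells adipocytes, and the defining adipocyte transcripts were low in both groups. ADIPOQ, which encodes adiponectin, and THRSP were at 0 in all 6 libraries. PPARG, the master regulator of fat cells, stood at 0.251, 0.141 and 0.454 FPKM in CON and 0.207, 0.119 and 0.312 in OA. FABP4, the adipocyte fatty acid binding protein, stood at 0.158, 0.884 and 0.219 FPKM in CON and 0.185, 0.619 and 0 in OA. The summed level of the 16 adipocyte markers found was 64.9 to 110.5 FPKM in CON and 71.0 to 129.0 in OA, most of it from RBP4, the retinol carrier. Of the 7 markers that could be tested, 4 were higher and 3 lower in OA, with a median log2 difference of 0.0038, from -0.07 without cow 3 to 0.05 without cow 2. RBP4 was 77.7, 86.4 and 44.2 FPKM in CON and 98.2, 91.8 and 49.4 in OA, higher in 3 of 3 cows. By contrast, PDGFRA, a receptor of fibroblasts and adipose progenitors, reached 41.7 to 165 FPKM in CON and 53.8 to 146 in OA. In bulk RNA of such cultures, fewer cells of a type and less RNA per cell cannot be told apart.

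No gene passed the test of OA against CON. With limma and cow as a block, 0 of 12615 genes had an adjusted p under 0.05 (0% called), the smallest adjusted p was 0.424, and 1170 genes had an unadjusted p under 0.05, of which 697 were higher (5.53%) and 473 lower (3.75%) in OA. Without the block limma also called 0 genes, and edgeR on the recovered reads called 0, with a smallest adjusted p of 0.108 and 1285 genes at an unadjusted p under 0.05. DESeq2 on the same reads called 3 genes higher and 2 lower, which are named below. Every difference described here is therefore a measured value that did not pass the main test. Differences between cows made up 81.5% of the total sum of squares on the log2 scale in the 12 libraries. Treatment, with PA and MIX included, made up 6.44%. These shares take no account of degrees of freedom and do not test treatment. The 3 cows also differed in the direction of their differences: 2143 genes (17.0%) were higher in OA in 3 of 3 cows and 1834 (14.5%) were lower in 3 of 3. The median of all genes tested was 0.0057 log2 units, with a median SE of 0.08, and 6576 of 12615 genes were higher in OA.

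Gene lists were read against those values. The cholesterol synthesis list had the median farthest from that of all genes, below it, and the proliferation list had the highest median among lists with at least 7 tested members.

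**Figure D1:**
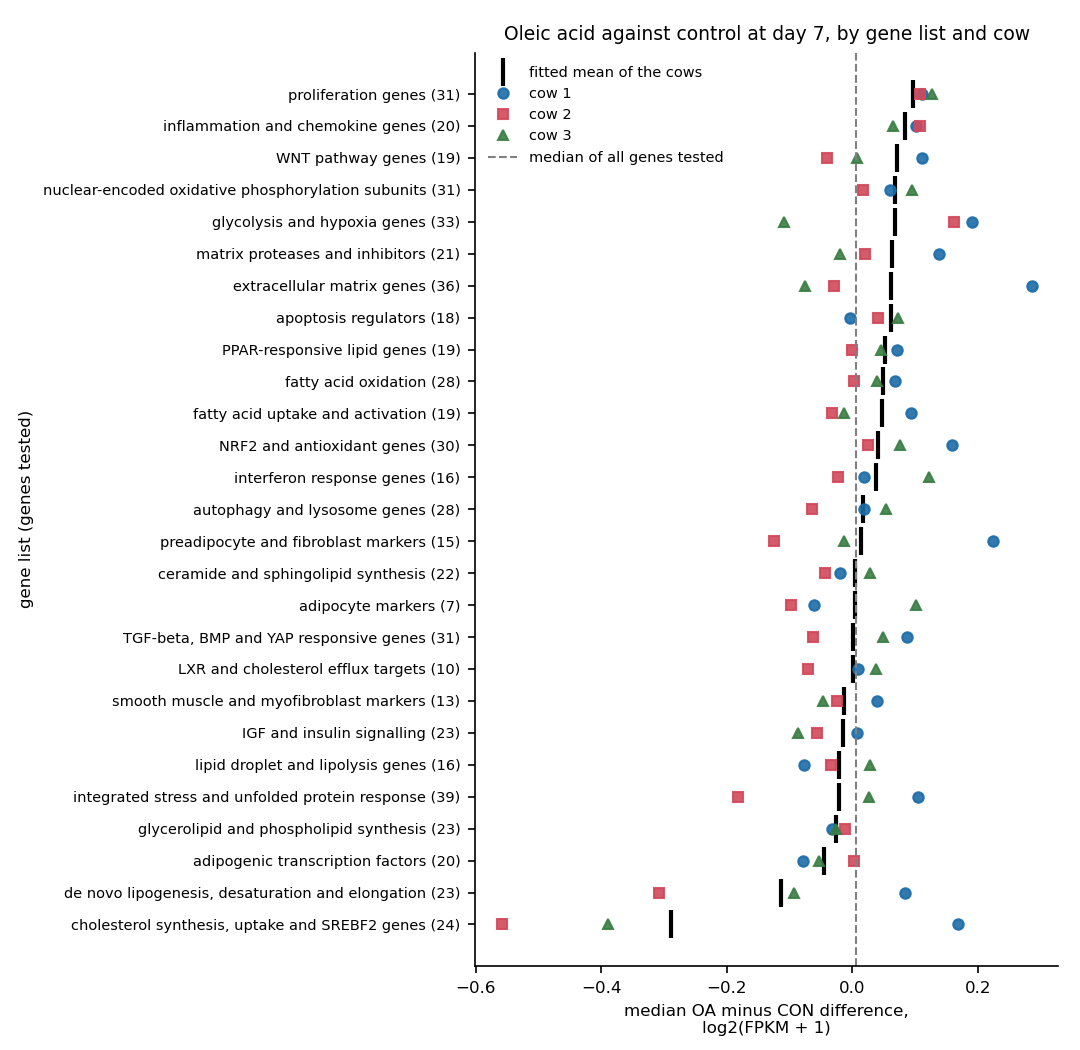
Median OA minus CON difference (log2(FPKM + 1), x axis) of 27 gene lists with at least 7 genes tested (y axis, number tested in brackets). Coloured points are the medians within each cow, black bars the medians of the fitted differences and the dashed line the median of all genes tested. Cow 1 lies to the right of cows 2 and 3 in both the cholesterol list and the de novo lipogenesis list, at the bottom.

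Genes of cholesterol synthesis and uptake were lower in OA in cows 2 and 3 and not in cow 1. Of 24 members tested, 23 had a lower mean in OA and 1 a higher mean, with a median log2 difference of -0.29, and 8 of the 23 had an unadjusted p under 0.05. Cow by cow the list median was 0.17, -0.56 and -0.39, and 21, 1 and 1 of the 24 members were higher in OA. Only 2 members were lower in 3 of 3 cows and none was higher in 3 of 3. HMGCS1, which makes the HMG-CoA that feeds the mevalonate pathway, was at 6.05, 42.0 and 28.7 FPKM in CON and 9.05, 21.7 and 14.0 in OA. The control level of cow 1 was the lowest of the 6 values and those of cows 2 and 3 the highest, so the groups overlapped. Its log2 difference was -0.46 ± 0.28 (SE, n = 3 cows; limma adjusted p = 0.636), with a 95% interval of -1.09 to 0.16. 

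IDI1, the isomerase of isopentenyl diphosphate, was at 7.76, 30.2 and 18.8 FPKM in CON and 8.57, 16.4 and 10.2 in OA, a log2 difference of -0.51 ± 0.18 (limma adjusted p = 0.486). SQLE, the squalene epoxidase, was at 9.08, 39.5 and 32.9 FPKM in CON and 9.97, 21.6 and 19.3 in OA, a log2 difference of -0.49 ± 0.19 (limma adjusted p = 0.508). In both genes cow 1 was low in CON and slightly higher in OA, and the other cows were well above that level in CON and lower in OA. SC5D, the sterol desaturase, was lower in 3 of 3 cows, at 13.4, 19.1 and 21.8 FPKM in CON and 13.1, 14.0 and 17.6 in OA. The cows differed in the control level of the whole list: its summed level in CON was 380, 786 and 690 FPKM, and in OA 433, 541 and 506. The range between cows was thus smaller in OA than in CON, as measured in 3 animals and not tested. Without cow 1, 23 of 24 members were lower and the median was -0.48, without cow 2 it was -0.13 with 20 lower, and without cow 3 it was -0.19 with 22 lower. Whether the depth gap between the libraries of cow 1 plays a part was not tested.

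Genes of fatty acid synthesis and desaturation had the second lowest median. Of 23 members tested, 19 had a lower mean in OA, with a median log2 difference of -0.11, and 4 were lower in 3 of 3 cows against 0 higher in 3 of 3. Cow medians were 0.08, -0.31 and -0.09, and in cow 1 16 of 23 members were higher. Without cow 1 the median was -0.18 with 21 lower, and without cow 2 it was -0.04 with 14 lower. SREBF1, the SREBP gene of fatty acid synthesis, was at 42.2, 57.0 and 44.6 FPKM in CON and 35.8, 36.7 and 34.0 in OA. All OA values lay below all CON values. The log2 difference was -0.41 ± 0.09 (n = 3 cows, lower in 3 of 3; limma adjusted p = 0.424, 95% interval -0.62 to -0.20). DESeq2 on the recovered reads called SREBF1 (log2 difference -0.42, adjusted p = 0.0443), and over the 20 settings tried its adjusted p ran from 0.0443 to 1 and its difference from -0.51 to -0.31. The deposited table places SREBF1 (ENSBTAG00000007884) on chromosome 19 from 34633133 to 34649213, on a genome build that is not given in the sources used here.

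SCD, the stearoyl-CoA desaturase that makes oleic acid from stearic acid, was at 27.9, 86.8 and 74.7 FPKM in CON and 35.5, 31.8 and 37.8 in OA. The OA values lay close together, between the control of cow 1 and those of the other cows. Its log2 difference was -0.68 ± 0.29 (limma adjusted p = 0.521), higher in cow 1 by 0.34 and lower in cows 2 and 3, at -1.42 and -0.96. FASN, the fatty acid synthase, showed the same arrangement, at 22.3, 54.8 and 51.8 FPKM in CON and 27.8, 31.3 and 33.6 in OA. FADS2, the delta-6 desaturase, was at 168, 30.9 and 94.8 FPKM in CON and 210, 14.3 and 67.4 in OA. ELOVL6, the elongase of palmitate, was at 3.88, 7.75 and 8.11 FPKM in CON and 3.84, 6.13 and 6.15 in OA. INSIG1, an SREBP brake that is itself an SREBP target, was named after its values were seen. It stood at 4.97, 16.4 and 22.4 FPKM in CON and 6.504, 7.11 and 11.5 in OA.

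**Figure D2:**
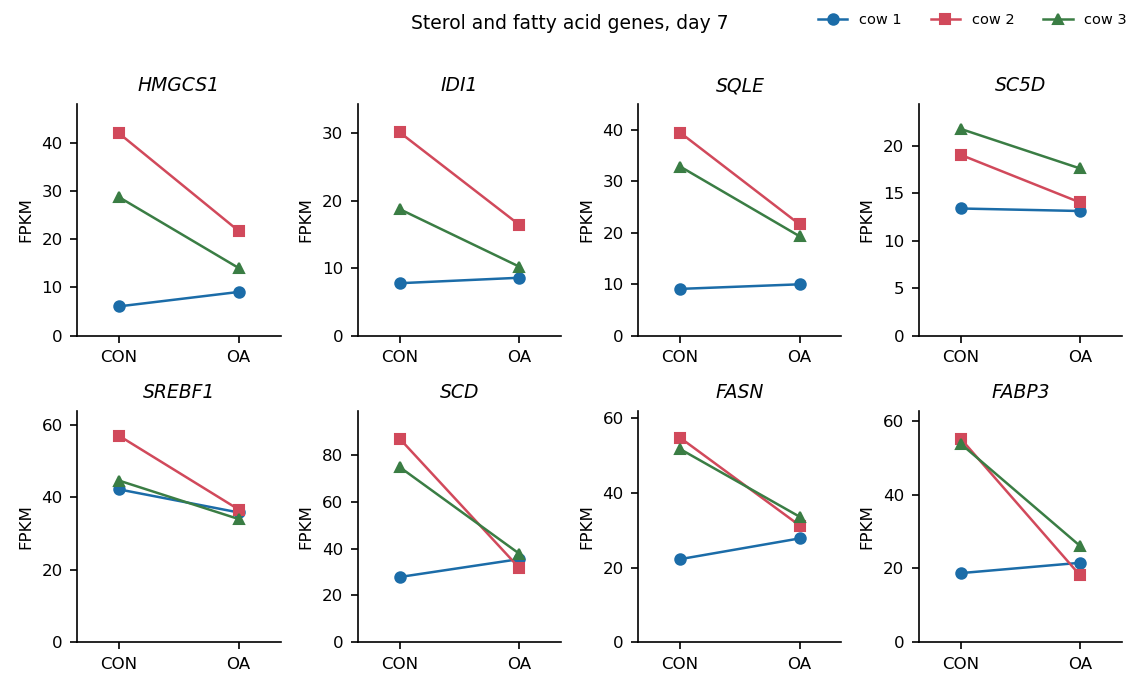
Levels in FPKM (y axes from 0, scaled per gene) of 8 sterol and fatty acid genes in CON and OA (x axes), with 1 line per cow. In 6 of the genes the line of cow 1 goes up and those of cows 2 and 3 go down, while in SREBF1 and SC5D all 3 lines go down.

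The neighbouring steps of lipid supply held members with that same arrangement. FABP3, a cytosolic fatty acid carrier, was at 18.7, 55.1 and 53.8 FPKM in CON and 21.5, 18.1 and 26.1 in OA, a log2 difference of -0.79 ± 0.29 (limma adjusted p = 0.496). ACSS2, which turns the acetate of the medium into acetyl-CoA, was at 6.82, 8.17 and 6.85 FPKM in CON and 6.88, 4.35 and 3.30 in OA. ACSL3, an acyl-CoA synthetase of lipid droplet formation, was at 16.8, 32.0 and 27.1 FPKM in CON and 18.0, 17.8 and 21.2 in OA. ACSS2 and ACSL3 belong to the fatty acid uptake and activation list, in which 13 of 19 members were higher in OA, with a median of 0.05. Without cow 1 that median was -0.0087, with 9 of 19 higher. In glycerolipid and phospholipid synthesis 15 of 23 members were lower, with a median of -0.03 and 8 lower in 3 of 3 cows. LPIN1, the phosphatidate phosphatase, was at 2.90, 3.59 and 4.06 FPKM in CON and 2.78, 1.87 and 2.32 in OA. LPCAT3, which loads polyunsaturated chains into phosphatidylcholine, was at 11.3, 16.8 and 19.7 FPKM in CON and 11.3, 10.1 and 15.8 in OA.

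PPAR-responsive lipid genes differed in direction among themselves. Of 19 tested, 14 had a higher mean in OA, 5 were higher and 2 lower in 3 of 3 cows, and the median was 0.05. The means ran from -0.79 for FABP3, given above, to 0.39 for ANGPTL4. In cow 2 the list median was -0.0008 with 9 of 19 higher, and without cow 3 it was 0.01 with 10 of 19 higher. PLIN2, which coats lipid droplets, was at 53.7, 29.7 and 67.1 FPKM in CON and 62.1, 31.7 and 86.4 in OA, higher in 3 of 3 cows within overlapping groups. Its log2 difference was 0.22 ± 0.07 (limma adjusted p = 0.444, 95% interval 0.06 to 0.37), and over the settings tried it ran from 0.15 to 0.29. ANGPTL4, a secreted inhibitor of lipoprotein lipase, was at 45.8, 10.5 and 64.0 FPKM in CON and 48.1, 18.8 and 80.1 in OA. It was higher in 3 of 3 cows, by 0.07, 0.79 and 0.32, a mean of 0.39 ± 0.13 (limma adjusted p = 0.452). CPT1A, which admits fatty acids to mitochondria, was at 25.7, 16.0 and 13.3 FPKM in CON and 22.0, 18.4 and 16.8 in OA, lower in cow 1 and higher in the others. Its mean difference turned from 0.10 to -0.02 without cow 3.

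PDK4, a kinase that spares glucose and a classical PPAR target, stayed under the filter, at 0.115, 0.0407 and 0.393 FPKM in CON and 0.148, 0.0618 and 0.344 in OA. CD36, the fatty acid translocase, was at 0.385, 0.0486 and 0.144 FPKM in CON and 0.364, 0.144 and 0.154 in OA. PPARA was at 2.16, 1.88 and 2.31 FPKM in CON and 1.92, 2.02 and 2.20 in OA. PPARD was at 8.08, 12.3 and 8.14 FPKM in CON and 7.84, 11.3 and 7.35 in OA. Log2 differences were -0.03 ± 0.10 for PPARA and -0.09 ± 0.06 for PPARD, which was lower in OA in each cow. Neither gene passed the test. The sign of PPARA turned without cow 1, to 0.01.

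The medians of both the PPAR list and the oxidation list were higher than that of all genes, and neither list had a member past the test. Of 28 fatty acid oxidation genes, 20 had a higher mean in OA, with a median of 0.05. In 3 of 3 cows 6 were higher, where 17.0% of all genes were. Cow medians were 0.07, 0.0029 and 0.04, with 17, 14 and 17 of the 28 higher. ACADS, the short-chain acyl-CoA dehydrogenase, was at 24.9, 31.5 and 32.3 FPKM in CON and 29.1, 34.5 and 37.1 in OA, a log2 difference of 0.18 ± 0.05 (limma adjusted p = 0.434). CROT, the peroxisomal octanoyltransferase, was at 11.97, 20.4 and 22.4 FPKM in CON and 14.9, 21.1 and 26.1 in OA. ETFA, which passes electrons from acyl-CoA dehydrogenases, was at 21.7, 23.2 and 20.8 FPKM in CON and 27.2, 23.99 and 23.4 in OA. Lipid droplet and lipolysis genes were mixed, with 7 of 16 higher and a median of -0.02, which became 0.0018 without cow 2 and -0.08 without cow 3. BSCL2, the seipin gene of droplet assembly, was lower in 3 of 3 cows, at 34.0, 17.4 and 17.9 FPKM in CON and 26.0, 13.9 and 17.6 in OA. LIPA, the lysosomal acid lipase, was higher in 3 of 3, at 23.2, 30.0 and 24.9 FPKM in CON and 28.3, 31.7 and 25.3 in OA.

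LXR and cholesterol efflux targets split evenly, 5 higher and 5 lower of 10, with a median of 0.00074 that ran from -0.0084 to 0.0057 when 1 cow was left out. NPC1, which exports cholesterol from lysosomes, was lower in 3 of 3 cows, at 14.1, 25.7 and 13.4 FPKM in CON and 12.7, 17.4 and 10.3 in OA, a log2 difference of -0.34 ± 0.09 (limma adjusted p = 0.426). APOE, the lipid-carrying apolipoprotein, was higher in 3 of 3, at 65.3, 48.0 and 54.3 FPKM in CON and 84.1, 58.4 and 58.1 in OA. ABCA1, the cholesterol exporter, differed more between cows than between treatments, at 24.1, 2.34 and 4.97 FPKM in CON and 20.0, 1.89 and 4.96 in OA. The log2 difference was -0.16 ± 0.18. The adipogenic transcription factor list leaned lower, with 14 of 20 lower in OA and a median of -0.05, which became -0.0015 with 10 of 20 lower without cow 1. Among its members, the coactivator NCOA1 was at 4.40, 4.63 and 4.48 FPKM in CON and 3.69, 4.27 and 3.87 in OA.

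The 10 genes each way with the smallest unadjusted p differed from CON in the same direction in 3 of 3 cows, as the rule for naming them required. None passed the test, and all 20 had a limma adjusted p of 0.424. Among those higher in OA, TYMS, the thymidylate synthase of DNA precursor supply, was at 11.3, 18.1 and 17.2 FPKM in CON and 15.0, 21.4 and 21.2 in OA, a log2 difference of 0.30 ± 0.05. LPCAT1, an acyltransferase that loads saturated chains into phosphatidylcholine, was at 39.1, 33.5 and 58.5 FPKM in CON and 51.3, 42.7 and 66.9 in OA, a log2 difference of 0.30 ± 0.05. DESeq2 called LPCAT1 (adjusted p = 0.0443), and over the 20 settings its adjusted p ran from 0.0443 to 1. ISG12(B), a member of an interferon-inducible family, was at 9.64, 11.0 and 16.8 FPKM in CON and 18.9, 19.9 and 18.9 in OA, with no overlap between groups. Its log2 difference was 0.62 ± 0.12, DESeq2 called it (adjusted p = 0.0443), and over the settings its adjusted p ran from 0.0443 to 1. The deposited table places LPCAT1 on chromosome 20 from 71006062 to 71048066 and TYMS on chromosome 24 from 35553464 to 35564144.

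The rest of the 10 higher genes were SLIRP, IDH2, TMCO1, ELOF1, POMC, MDFI and ISOC1, with log2 differences of 0.20 for ELOF1 to 0.51 for MDFI. IDH2, the mitochondrial isocitrate dehydrogenase that makes NADPH, had very even values, at 17.1, 17.4 and 19.9 FPKM in CON and 20.0, 20.5 and 23.8 in OA. SLIRP, which stabilises mitochondrial messenger RNA, was at 59.7, 60.3 and 66.1 FPKM in CON and 69.9, 72.2 and 90.1 in OA. Neither gene had a group overlap, though for IDH2 the CON value of cow 3 (19.94) nearly met the OA value of cow 1 (19.97). The share of all genes tested without overlap was not counted. Lack of overlap is therefore not read as particular to any gene described so in this report. 

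The 10 lower genes had log2 differences of -0.53 for NUDT17 to -0.19 for ATXN2L. FOXO1, the transcription factor that insulin keeps out of the nucleus, was at 16.8, 17.2 and 9.85 FPKM in CON and 13.02, 14.02 and 8.18 in OA, a log2 difference of -0.29 ± 0.06. PRKAB1, a regulatory subunit of the energy sensor AMPK, was at 17.6, 11.6 and 11.7 FPKM in CON and 15.3, 9.79 and 9.87 in OA. SREBF1, described above, was the 10th. NUDT17, a nudix hydrolase, was at 3.15, 3.02 and 3.25 FPKM in CON and 2.346, 1.826 and 1.4997 in OA, with no overlap. UBE2QL1, of the ubiquitin-conjugating family, was at 21.4, 45.9 and 7.63 FPKM in CON and 13.5, 33.8 and 6.46 in OA, and was the other lower gene that DESeq2 called (adjusted p = 0.0479, from 0.0479 to 1 over the settings). The remaining 5 were TMEM265, TMEM145, ATXN2L, TMEM131 and DIXDC1, with log2 differences of -0.35 for TMEM265 to -0.19 for ATXN2L. The last gene called by DESeq2 has no symbol in the table, ENSBTAG00000015818, at 2.03, 1.09 and 0.897 FPKM in CON and 4.83, 3.53 and 1.55 in OA.

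DNA replication and cell division genes were the list with the most members higher in all cows. Of 31 members, 29 had a higher mean in OA and 16 were higher in 3 of 3 cows, where 17.0% of all genes were, with a median of 0.10 and cow medians of 0.11, 0.11 and 0.13. These were low transcripts: the list's library medians were 1.80 to 5.71 FPKM in CON and 2.17 to 6.91 in OA. CCNB2, a mitotic cyclin, was at 1.46, 3.84 and 2.84 FPKM in CON and 2.07, 5.16 and 3.21 in OA, a log2 difference of 0.27 ± 0.08 (limma adjusted p = 0.434). BUB1B, of the spindle checkpoint, was at 0.606, 2.66 and 1.92 FPKM in CON and 1.07, 3.42 and 2.19 in OA. Without OA cow 2 the list's median was 0.04, and without OA cow 3 it was 0.19.

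Nuclear-encoded subunits of oxidative phosphorylation were also higher in most members. Of 31, 26 had a higher mean and 14 were higher in 3 of 3 cows, with a median of 0.07, which became 0.10 without cow 2. NDUFB5, of complex I, was at 22.6, 25.5 and 26.7 FPKM in CON and 26.6, 28.2 and 30.3 in OA, a log2 difference of 0.18 ± 0.05 (limma adjusted p = 0.426). SDHD, a membrane anchor of complex II, was at 29.4, 34.3 and 33.6 FPKM in CON and 38.0, 33.8 and 39.7 in OA. COX8A, of cytochrome c oxidase, was lower in 3 of 3 cows, at 149, 126 and 134 FPKM in CON and 134, 113 and 125 in OA. 

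Gene length moved with the difference, and the respiratory subunits are short genes, with a median length of 1214 bases against 2337 for all genes tested. Across genes, Spearman's rho of length and the OA minus CON difference was -0.18, and within cows -0.12, -0.06 and -0.19. This is a description across genes, which are not independent replicates, and it was weaker for PA minus CON (-0.06) and MIX minus CON (-0.02), which share the CON libraries. Genes of 500 to 1000 bases had a median difference of 0.06 and those over 6000 bases one of -0.04. With the trend on length removed, 22 of the 31 respiratory subunits were higher and their median was 0.03. The proliferation median was 0.11 after the same adjustment, with 29 of 31 higher, and the cholesterol median was -0.28, with 1 of 24 higher. The adjustment was also run on the other lists and on the 126 named genes tested, of which 125 kept their sign and 1 reversed. The matrix median became 0.09 from 0.06, the glycolysis median stayed at 0.07 and the antioxidant median became 0.03 from 0.04. Small medians changed sign for adipocyte markers, LXR targets, insulin signalling and ceramide genes. The part of what goes with gene length, such as RNA integrity, was not tested.

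**Figure D3:**
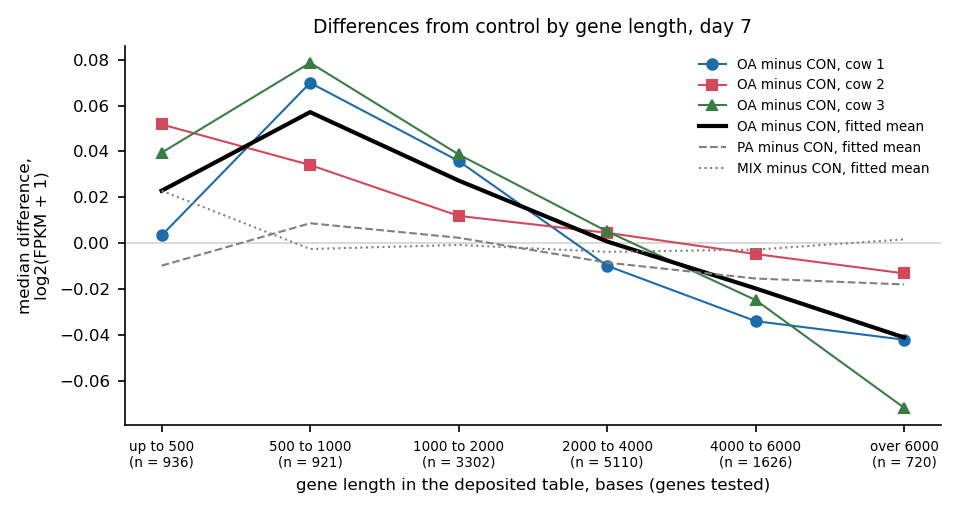
Median difference from CON (log2(FPKM + 1), y axis) in 6 classes of gene length (x axis, bases, with the number of genes). Coloured lines are OA minus CON within each cow, the black line is the fitted OA minus CON difference, and the grey lines are PA and MIX minus CON. The OA lines lie above 0 for genes of 500 to 2000 bases and below 0 for genes over 4000 bases in each cow.

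Antioxidant genes under NRF2 leaned the same way, with 23 of 30 higher, 9 higher in 3 of 3 cows and a median of 0.04, which became 0.12 without cow 2. TXN, thioredoxin, was at 301, 348 and 391 FPKM in CON and 404, 366 and 433 in OA. SRXN1, sulfiredoxin, was at 29.5, 19.4 and 17.3 FPKM in CON and 34.3, 21.5 and 21.5 in OA. GCLC, the rate-limiting ligase of glutathione synthesis, was at 20.4, 7.31 and 69.2 FPKM in CON and 28.4, 11.9 and 73.0 in OA. Each was higher in 3 of 3 cows with overlapping groups. The limma adjusted p was 0.434 for TXN and SRXN1 and 0.523 for GCLC.

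Glycolysis and hypoxia genes were higher in OA in cows 1 and 2 and lower in cow 3. Of 33 members, 30 had a higher mean, with a median of 0.07, and 2 were higher in 3 of 3 cows. Counted within cows, 28, 32 and 4 of the 33 were higher in OA, with medians of 0.19, 0.16 and -0.11. PGK1, the phosphoglycerate kinase, shows this, at 311, 307 and 435 FPKM in CON and 372, 354 and 424 in OA. P4HA1, a hypoxia-responsive prolyl hydroxylase of collagen, was at 38.4, 74.0 and 125 FPKM in CON and 46.1, 80.5 and 122.9 in OA. TPI1, listed at 1.44, 0.93 and 2.46 FPKM in CON and 2.22, 1.38 and 2.48 in OA, is uncertain, since reads of near-identical copies could be split by the counting. Without cow 3, 33 of 33 members were higher with a median of 0.19, and without cow 1 or cow 2 22 were.

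Extracellular matrix genes were higher in cow 1. Of 36 members, 34, 16 and 9 were higher in OA within cows 1, 2 and 3, with medians of 0.29, -0.03 and -0.07. Over the cows 29 had a higher mean, with a median of 0.06, and 4 were higher in 3 of 3. Without cow 1, 12 of 36 were higher and the median was -0.04. COL1A2, a chain of type I collagen, was at 2148, 6815 and 5847 FPKM in CON and 3440, 6853 and 5958 in OA, so that its difference of 0.68 in cow 1 stood beside 0.01 and 0.03 in the others. The fibroblast marker list itself holds matrix genes, among them COL1A2, COL3A1 and FN1, so it is not independent of the matrix list. Of its 15 members tested, 12, 4 and 5 were higher in cows 1, 2 and 3, with medians of 0.22, -0.12 and -0.01. Without cow 1 the fitted median was -0.05 with 4 of 15 higher. The receptor PDGFRA was the lowest member in cow 1, at -0.18, and the highest in cow 2, at 0.36. The summed level of the fibroblast markers was 16377 to 35972 FPKM in CON and 20686 to 32934 in OA. The part of fibroblast content in the matrix values was not tested.

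COL18A1, which encodes a basement membrane collagen, was higher in all 3 cows, at 4.56, 10.1 and 1.14 FPKM in CON and 10.8, 19.2 and 1.49 in OA. Its log2 difference was 0.72 ± 0.20 (limma adjusted p = 0.426, 95% interval 0.28 to 1.16), with 1.08, 0.87 and 0.21 in the cows. HAS2, a hyaluronan synthase, was at 1.59, 1.78 and 5.86 FPKM in CON and 2.03, 2.44 and 6.72 in OA. Matrix proteases and their inhibitors had 14 of 21 members higher, a median of 0.06 and 5 members higher in 3 of 3 cows. Cow medians were 0.14, 0.02 and -0.02, and without cow 1 the median was -0.01 with 9 of 21 higher. MMP1, the interstitial collagenase, was at 3.83, 1.64 and 4.31 FPKM in CON and 9.89, 4.88 and 6.74 in OA, with no overlap between groups. Its log2 difference of 0.96 ± 0.20 (limma adjusted p = 0.424, 95% interval 0.50 to 1.42) ran from 0.78 to 1.22 over the settings. 

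PLAUR, the urokinase receptor, was at 92.6, 115 and 66.4 FPKM in CON and 162, 117 and 75.9 in OA. MMP14, a membrane-bound metalloproteinase, was at 468, 407 and 314 FPKM in CON and 510, 424 and 360 in OA. MMP9, a gelatinase named after its values were seen, was high in 1 cow, at 6.06, 0.239 and 0.303 FPKM in CON and 21.1, 0.258 and 0.276 in OA. Smooth muscle and myofibroblast markers were mixed, with 6 of 13 higher and a median of -0.01, which became 0.02 without cow 2. SYNPO2, an actin-bundling protein, had a log2 difference of -0.13 ± 0.08. 

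Inflammation and chemokine genes had 16 of 20 tested members higher in OA, a median of 0.08 and 5 members higher in 3 of 3 cows. Within cows 1, 2 and 3, 15, 12 and 13 of the 20 were higher. Without cow 3 the median was 0.04, with 16 of 20 higher, and without cow 1 it was 0.10, with 13 of 20 higher. CXCL5, a neutrophil-attracting chemokine, was at 23.4, 33.3 and 81.4 FPKM in CON and 32.4, 56.5 and 115 in OA. The log2 difference was 0.56 ± 0.16 (limma adjusted p = 0.426), higher in 3 of 3 cows, and reads of near-identical CXCL genes could be split by the counting. CXCL12, a chemokine of stromal cells, was at 29.5, 19.5 and 56.9 FPKM in CON and 39.5, 28.4 and 60.2 in OA. IL6 differed more between cows than between treatments, at 152, 12.1 and 21.6 FPKM in CON and 181, 21.4 and 32.1 in OA, a log2 difference of 0.52 ± 0.36 (limma adjusted p = 0.68). PTGS2, which makes prostaglandins, was at 17.3, 3.01 and 4.78 FPKM in CON and 18.0, 3.41 and 5.72 in OA. CCL2, a monocyte chemokine, was at 81.6, 53.2 and 48.3 FPKM in CON and 94.8, 44.5 and 52.6 in OA. Its difference of 0.03 ± 0.09 had no stable sign, turning to -0.07 without cow 1.

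Markers of immune and other cells gave the following levels beside these. The summed macrophage and leukocyte markers (17 found, 3 tested) were 2.80 to 6.77 FPKM in CON and 4.19 to 7.16 in OA, with PTPRC, LYZ and CD52 at 0 in all 6 libraries. CD68, a lysosomal protein of macrophages and other cells, was at 3.46, 0.747 and 2.28 FPKM in CON and 4.55, 1.61 and 2.31 in OA. CD14, which inflamed stromal cells can also express, was at 19.4, 3.398 and 7.73 FPKM in CON and 21.1, 5.24 and 8.04 in OA. The summed endothelial markers (13 found, 2 tested) were 3.42 to 3.64 FPKM in CON and 3.91 to 4.45 in OA, with CLDN5 and ESAM at 0. The summed epithelial and mesothelial markers (11 found, 3 tested) were 2.56 to 14.4 FPKM in CON and 2.64 to 12.7 in OA, most of it MSLN in cows 2 and 3, at 6.90 and 12.7 FPKM in CON, against 0.204 in cow 1. Interferon response genes had 11 of 16 higher, with a median of 0.04. Within cows 8, 7 and 14 of the 16 were higher, and without cow 3 the median was -0.0052 with 8 of 16 higher. XAF1 was 0.38 ± 0.11 higher in OA and IRF7 lower, at -0.24 ± 0.09.

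Stress and unfolded protein response genes were mixed, with 16 of 39 higher, a median of -0.02 and cow medians of 0.10, -0.18 and 0.03. Without cow 2 the median was 0.08 with 27 of 39 higher. PDIA4, a disulphide isomerase of the endoplasmic reticulum, was at 93.5, 113 and 169 FPKM in CON and 119, 130 and 178 in OA. DDIT3, the stress factor CHOP, was at 22.2, 19.9 and 10.7 FPKM in CON and 17.4, 16.5 and 10.8 in OA, a log2 difference of -0.19 ± 0.09. SEL1L, of protein disposal from the endoplasmic reticulum, was lower in 3 of 3 cows, at -0.16 ± 0.06. Apoptosis regulators had 12 of 18 higher and a median of 0.06. PMAIP1, the BH3-only protein NOXA, was at 54.9, 28.9 and 59.1 FPKM in CON and 68.6, 36.4 and 74.3 in OA, the same difference of 0.32 in each cow. BAX, the pore-forming effector, was at 67.3, 52.2 and 69.5 FPKM in CON and 81.1, 58.1 and 73.0 in OA.

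The signalling and turnover lists lay near the median of all genes or were split. TGF-beta, BMP and YAP responsive genes had 16 of 31 higher and a median of 0.0014, from -0.04 without cow 1 to 0.06 without cow 2, with TGFBI at 0.44 ± 0.17 and SKIL, a SMAD repressor, at -0.23 ± 0.07. WNT pathway genes had 13 of 19 higher and a median of 0.07, with 1 higher in 3 of 3 cows. Cow medians were 0.11, -0.04 and 0.0071, and without cow 1 the median was -0.02 with 9 of 19 higher. WNT5A was at 26.2, 39.8 and 459 FPKM in CON and 49.6, 38.8 and 525 in OA, high in cow 3 under both treatments. IGF and insulin signalling had 11 of 23 higher and a median of -0.01, which became -0.03 without cow 1, with IGFBP6 at 0.28 ± 0.09, PIK3R1 at -0.16 ± 0.06 and FOXO1 as given above. Autophagy and lysosome genes had 15 of 28 higher and a median of 0.02, from -0.02 without cow 3 to 0.06 without cow 2. Ceramide and sphingolipid genes had 11 of 22 higher and a median of 0.0044, which became -0.01 without cow 2 and -0.02 without cow 3, with the ceramidase ACER3 at 0.27 ± 0.10.

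OA and PA were given to cells of the same cows at the same 300 µM, so the saturated and the monounsaturated fatty acid could be compared at matched dose and time. This is the 1 pair of compounds tested, and it shares the OA libraries with the comparison above. Limma with the block called 0 of 12615 genes (0% called), with a smallest adjusted p of 0.169 and 1448 genes at an unadjusted p under 0.05. edgeR on the recovered reads called 7 genes higher and 1 lower in OA, and DESeq2 called 53 higher and 0 lower. The 8 genes of edgeR were COL18A1, ISG12(B), LPCAT1, MMP9, MMP1, TTC9 and GDF15, higher, and FAM180A, lower, the last 3 and MMP9 being outside the naming rule. LPCAT1 was at 35.1, 33.1 and 53.1 FPKM in PA, below OA in 3 of 3 cows, a log2 difference of 0.41 ± 0.05 (limma adjusted p = 0.169). ISG12(B) was at 9.64, 9.01 and 11.99 FPKM in PA, a log2 difference from OA of 0.86 ± 0.12 (limma adjusted p = 0.169).

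RNF152, a lysosomal ubiquitin ligase, stood lower in PA than in the other treatments, at 1.83, 0.626 and 3.18 FPKM against 7.03, 2.96 and 5.28 in OA and 4.05, 2.58 and 5.10 in CON. PHC2, a Polycomb subunit, was at 62.6, 61.5 and 61.1 FPKM in PA and 76.1, 70.2 and 73.5 in OA, with no overlap. ANKRD39 was lower in OA than in PA, at 5.34, 8.66 and 7.16 FPKM against 7.49, 11.9 and 8.89, and DUSP28 and TMEM145 lay below PA in 3 of 3 cows, at -0.38 ± 0.08 and -0.30 ± 0.06. A gene listed as RPL10 had a difference of -0.25 and is uncertain because of near-identical copies of ribosomal protein genes. A p that misses the threshold does not show that the fatty acids act alike. For OA minus PA, the 95% intervals were 0.29 to 0.52 for LPCAT1, 0.75 to 1.501 for RNF152, -1.20 to 0.10 for SCD and 0.09 to 0.40 for PLIN2, not adjusted for the number of genes.

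The values of the lists for PA and MIX, which share their CON libraries with OA, stood as follows. The cholesterol list had a median of -0.05 for PA, -0.25 for MIX and -0.29 for OA. Cow by cow it was 0.0074, 0.06 and -0.25 for PA and 0.04, -0.36 and -0.40 for MIX. SCD was at 28.6, 88.0 and 54.5 FPKM in PA and 27.9, 43.5 and 45.4 in MIX, so that the fitted differences from CON were -0.13 and -0.56, beside -0.68 in OA. SREBF1 was -0.17 in PA, -0.33 in MIX and -0.41 in OA. PLIN2 was -0.03 in PA and -0.08 in MIX beside 0.22 in OA, and ANGPTL4 was -0.02 and 0.08 beside 0.39. MMP1 was -0.14 in PA and 0.03 in MIX beside 0.96, and COL18A1 -0.13 and -0.06 beside 0.72. The glycolysis list had a median of -0.08 for PA and -0.14 for MIX beside 0.07 for OA. Within cows it was -0.04, -0.12 and -0.10 for PA and -0.0074, -0.22 and -0.14 for MIX, so in cow 3 it was below 0 in all treatments, OA included at -0.11. The proliferation list had 0.02 and -0.02 beside 0.10, and the matrix list -0.07 and 0.0049 beside 0.06. Within cows the proliferation medians were 0.0055, -0.16 and 0.17 for PA and 0.02, -0.18 and 0.08 for MIX, beside 0.11, 0.11 and 0.13 for OA. In cow 3 that list was thus also higher than CON in PA and MIX.

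**Figure D4:**
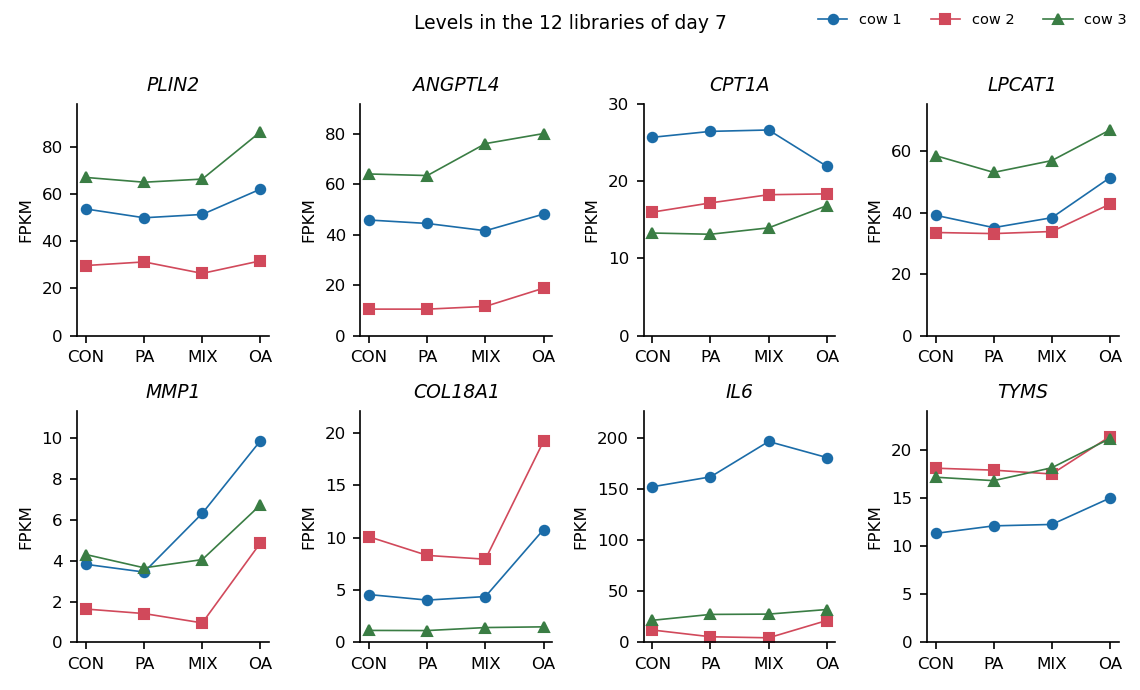
Levels in FPKM (y axes from 0, scaled per gene) of 8 genes in the 12 libraries of day 7, by treatment (x axes), with 1 line per cow that joins its libraries. PLIN2, ANGPTL4, LPCAT1, MMP1, COL18A1, IL6 and TYMS are each higher in OA than in CON in all 3 cows, and CPT1A is lower in cow 1.

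At day 4, OA had been present during induction and in cells of other cows, and the difference between the days was tested on 24 libraries. Limma called 0 of 12132 genes (0% called), with a smallest adjusted p of 0.448 and 666 genes at an unadjusted p under 0.05. Genes whose OA minus CON difference was higher at day 7 were led by SAV1, a Hippo pathway scaffold, with 0.20 at day 7, -0.20 at day 4 and a difference of 0.41 ± 0.08 (limma adjusted p = 0.448). LTB4R, a leukotriene receptor, had 0.48 and -0.36, TMCO1 0.28 and -0.08, and ASB13 0.23 and -0.34. In the other direction stood NUDT17, JUP and HSPB6, which were all lower in OA at day 7 and higher at day 4. The cholesterol list had a median of 0.13 at day 4, with 20 of 24 members higher, beside -0.29 at day 7. HMGCS1 was 0.38 higher in OA at day 4, and the difference between days was -0.84 ± 0.33 (limma adjusted p = 0.88). PLIN2 was 0.46 higher at day 4 and 0.22 at day 7, and ANGPTL4 0.40 and 0.39. IL6, PTGS2 and CCL2 were higher at day 4 in 3 of 3 cows, by 0.92, 0.73 and 0.44, against 0.52, 0.14 and 0.03 at day 7. The limma adjusted p of those day differences was 0.967, 0.835 and 0.803. The cows and the timing of the fatty acid both differ between the days and cannot be told apart.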

How the data were processed

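RNA of 24 libraries was sequenced, and 12 from day 7 (CON, PA, OA, MIX; cows 1 to 3) enter the main fit. The submitters' processing notes name featureCounts 1.5.0-p3, StringTie 1.3.3b and FastQC 0.11, with no role or order. The aligner, the build and the strand setting were not given in the sources used here.

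The authors deposited FPKM per gene for day 7, with the gene length per the file headers. For day 4 the deposited table also holds raw counts per gene, used here for library totals only, while the day comparison used the FPKM the authors gave. The tables hold 27570 genes, of which 26 carry names turned into dates. FPKM times gene length was divided by the smallest nonzero product of each library, which was taken as a single read. This gave whole numbers for 100% of values within 0.01, and these reads served edgeR and DESeq2 as alternatives.

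FPKM were kept where at least 3 of 12 libraries reached 1 (12615 genes), put on log2(FPKM + 1) and fitted with limma-trend, cow as a block, two-sided, with Benjamini-Hochberg adjustment and a threshold of 0.05. Same-numbered libraries come from the same cow. Their deviations from the group means correlated at r = 0.772 to 0.864 in 18 pairs, against -0.53 to -0.31 for other pairs. Deviations in a group of 3 sum to 0, so negative values for the other pairs follow from the centring once same-cow pairs correlate. The members and the 30 gene lists (762 genes, 735 found) were chosen with earlier results of these data known. The rule for naming took the 10 smallest unadjusted p each way (named genes that averaged 2 FPKM or more in 1 group and went the same way in 3 cows), up to 3 members of each list by smallest p, the leading genes against PA and between days, and fixed lipid, PPAR, stress and inflammation genes. Alternatives were no block, 6 libraries, pseudocount 0.1, no filter, 5 FPKM, rescaled FPKM, robust fitting, a length adjustment (lowess span 0.5) and leaving out each cow or library. The length adjustment and the list medians without each cow were chosen after seeing the data. Fits were tested on simulated data with planted changes larger than most differences described here. That test therefore does not bear on the small differences. R 4.3.3, limma 3.58.1, edgeR 4.0.16, DESeq2 1.42.0, Python 3.11.15 and matplotlib 3.10.9 were used. List genes that were not found by symbol were not analysed here, and some genes that the rule names are not reported here.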

Additional observations from a re-analysis of the deposited data

How the results depend on the processing

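For OA against CON, limma called 0 genes under each of the leave-out settings and the alternatives with limma except that without a filter, which called 2 genes lower (bta-mir-544b-2 and ENSBTAG00000049681). edgeR called 0, and DESeq2 called 3 higher and 2 lower. The fit without cow as a block called 0 genes in each comparison, with 68 genes at an unadjusted p under 0.05 for OA against CON beside 1170 with it. For OA against PA, edgeR called 7 higher and 1 lower, DESeq2 called 53 higher and 0 lower, and limma 0 under every other setting tried. The difference between days ranged from 0 to 2 genes when a cow was left out, the 2 being ACAT2 and bta-mir-6119 without cow 1. The causes were not tested.

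Of 126 named genes tested, 117 kept their sign under every setting in which they had a value. The other 9 turned when a cow or a library was left out, with ranges over those settings of -0.0082 to 0.43 for ADIRF, -0.23 to 0.020 for PLIN1, -0.020 to 0.36 for MSLN, -0.064 to 0.12 for KRT19, -0.21 to 0.032 for CD163, -0.52 to 0.17 for FCER1G, -0.090 to 0.019 for PPARA, -0.030 to 0.25 for CPT1A and -0.067 to 0.17 for CCL2. With the length adjustment CCL2 was -0.00040. Some marker lists had no gene left under the 5 FPKM filter and so no median there. Each group held 3 animals, and the median SE was 0.08 beside a median absolute difference of 0.07. Without the OA library of cow 1, the shallowest of the 6 at 14398902 reads, limma called 0 genes and the smallest adjusted p was 0.506, within 0.065 to 0.652 over the leave-out settings. Why so few genes were called was not tested.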

Other observations

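Genes of cytosolic ribosomal proteins, a set chosen after its values were seen, were higher in OA in 77 of 81 members tested and in 3 of 3 cows in 65, where 17.0% of all genes were. The median log2 difference was 0.15, with 0.19, 0.07 and 0.16 in cows 1, 2 and 3, and the same genes had medians of 0.00095 for PA and -0.02 for MIX, which share the CON libraries. They are short, with a median length of 845 bases, and with the trend on gene length removed 71 of 81 were higher, with a median of 0.11. Proteasome subunits had 29 of 36 higher with a median of 0.05, and mitochondrial ribosomal proteins 53 of 78 with a median of 0.04, which became 0.02 and 0.01 after the same adjustment. The 206 snoRNA genes tested had a median of -0.08 with 89 higher, and -0.12 with 80 higher after the adjustment. Near-identical copies of ribosomal protein genes make single members uncertain, and the part of RNA integrity or library preparation in these values was not tested.

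GDF15, a stress cytokine, was named after its values were seen. It was at 60.3, 11.7 and 101.4 FPKM in CON and 91.2, 16.7 and 127 in OA, higher in 3 of 3 cows, a log2 difference of 0.46 ± 0.12 (limma adjusted p = 0.426). In PA it was at 59.8, 14.2 and 72.4 FPKM and in MIX at 71.2, 12.02 and 88.3. TTC9 was at 20.6, 6.09 and 11.2 FPKM in CON and 26.0, 10.0 and 12.9 in OA. FAM180A, the gene that edgeR called lower in OA than in PA, differed more between cows than between treatments, at 9.92, 65.8 and 0.822 FPKM in CON and 7.38, 37.4 and 0.611 in OA.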
